A study of Rattus norvegicus with 6 samples.

Results

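The genes described here encode 4 bone morphogenetic protein (BMP) ligands, Bmp2, Bmp4, Bmp6 and Bmp7, and 6 of the receptors that BMPs use, Bmpr1a, Bmpr1b, Bmpr2, Acvr1, Acvr2a and Acvr2b. These 10 genes were taken by symbol from the platform's annotation, out of 13949 named genes with values, and each was measured by 1 probe set. The samples were primary cultures of oligodendrocyte progenitor cells (OPCs) of the rat, which divide and give rise to the cells that make myelin. The cells came from newborn pups, and before treatment they spent 2 days in proliferation medium, which held the supplements N2 and B27 and the growth factors NT3 and PDGF. Fibrinogen was then added to 3 samples for 12 h, and 3 were left unstimulated as controls. Fibrinogen is the soluble clotting protein of blood plasma. The title of the series states that it activates BMP signaling in OPCs, and the comparison here asks whether the RNA of the ligands and receptors themselves differed between the groups. The labels used here give no dose of fibrinogen, no strain and no sex, and they do not say whether the replicates were separate cultures, so that each p-value reflects the spread among 3 samples a group that may differ for technical reasons alone.

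BMPs are secreted as dimers and bind a complex of type I and type II receptors at the cell surface. The type II receptor, a kinase that is always active, phosphorylates the type I receptor, which then phosphorylates Smad1, Smad5 and Smad9, and these enter the nucleus with Smad4 and switch on targets such as the Id genes. In cultured OPCs, BMPs are known to hold back oligodendrocyte differentiation and to favour an astrocyte fate.

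Values are log2 expression levels, so a difference of 1 is a doubling. Levels of different probe sets cannot be set against each other as amounts, and the levels of 956 olfactory and vomeronasal receptor genes, which OPCs are not known to use, served as a measure of background, with a 95th percentile of 5.51. By the mean of all arrays, 71.3% of all genes lay above that level. Markers checked the labelled cell type. Across all genes 1.81% rose and 1.29% fell at an adjusted p under 0.05, and 15.6% reached an unadjusted p under 0.05 (limma). All 8 measured OPC markers lay above that background, 4 of them fell and 0 rose (limma; at an unadjusted p under 0.05, 4 were lower and 1 higher), and their levels summed on a linear scale were 14441 to 15517 in fibrinogen and 17292 to 17846 in control cells. All 6 measured astrocyte markers lay above it too, 2 of them rose and 0 fell (4 and 0 at an unadjusted p under 0.05), and their sum was 3443 to 4079 in fibrinogen and 2802 to 2843 in control cells. Gfap and Slc1a2 rose, by 1.24 and 0.65 on the log2 scale. S100b (0.46) and Aldoc (0.21) did not pass (adjusted p = 0.0516 and 0.244, limma), and Aqp4 (0.01) and Gja1 (-0.04) did not either. Genes with the highest levels count most in such sums, so a sum does not stand for every marker in its list. Of the oligodendrocyte, microglia, neuron, endothelial and pericyte or fibroblast markers, 5 of 6, 4 of 8, 5 of 7, 1 of 5 and 3 of 6 lay above background, and 0 of them passed the test of change (limma, with 1, 0, 0, 0 and 1 at an unadjusted p under 0.05). The sum of the oligodendrocyte markers did not overlap between the groups, with 2763 to 2898 in fibrinogen and 2360 to 2515 in control cells. The marker Cldn11, a tight junction protein of myelin, had a log2 change of 0.38 (adjusted p = 0.169, limma). Its groups did not overlap, as for 21.3% of all genes. Mbp, Mobp and Mag had log2 changes of 0.20, 0.08 and 0.02 and Mog one of -0.14, all with groups that overlapped. Opalin was below background in both groups. The microglia markers Aif1, Itgam, Ptprc and Csf1r and the endothelial markers Cldn5, Tek, Flt1 and Emcn were below background in both groups. So were the neuron markers Gad1 and Slc17a7. The microglia markers Cd68, Tmem119, P2ry12 and Cx3cr1 and the neuron markers Tubb3, Stmn2, Syt1, Snap25 and Rbfox3 were above it in both groups. In control cells the log2 means of Cd68 and Tubb3 were 7.06 and 9.99. The endothelial marker Cdh5 lay at its edge, at 5.55 in fibrinogen and 5.48 in control cells. In a bulk sample, fewer cells of a type and less RNA per cell cannot be told apart, and the part of these marker shifts in the results below was not tested. The array fibrinogen 2 deviated most from its group, with an SD of all genes about the group mean of 0.146, against 0.114 and 0.110 for fibrinogen 1 and 3 and 0.0862 to 0.0939 for the controls. The neuron marker Syt1 had a log2 level of 8.58 on fibrinogen 2 and 7.60 to 7.65 on the other arrays. Snap25 (7.95) and Rbfox3 (6.93) were also highest on fibrinogen 2, while Tubb3 (9.78) and Stmn2 (8.16) were lowest there. Whether this array differed in cell content was not tested.

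Of the 10 genes, 8 lay above background in control cells: Bmp4, Bmp6, Bmp7, Bmpr1a, Bmpr2, Acvr1, Acvr2a and Acvr2b. By the mean of all arrays, 71.3% of all genes lay above it. The control mean of Bmp6 was only 0.070 over background, and control 1 lay below it. Bmp2 and Bmpr1b lay below it in both groups, so a change in either cannot be told from a change in background signal. After 12 h of fibrinogen 1 of the 10 rose, the type I receptor gene Bmpr1a, 1 fell, the ligand gene Bmp7, and 8 did not pass (limma, Benjamini-Hochberg adjusted p under 0.05 over all genes). Across all genes 3.1% passed, 1.81% higher and 1.29% lower. The 3 fibrinogen arrays lay wholly above the 3 control arrays for Bmpr1a and Bmpr2, and wholly below them for Bmp2, Bmp4, Bmp7 and Acvr2a, which makes 6 of 10 genes without overlap. Of all genes 21.3% had none, with 10.7% higher and 10.6% lower. An unadjusted p under 0.05 was reached by 3 of the 10 genes upward and 4 downward, and by 15.6% of all genes. The median log2 change was -0.32 over the 4 ligands and 0.12 over the 6 receptors, against -0.0033 over all genes, and the median size of the change regardless of sign was 0.23 over the 10 genes and 0.087 over all genes.

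**Figure D1:**
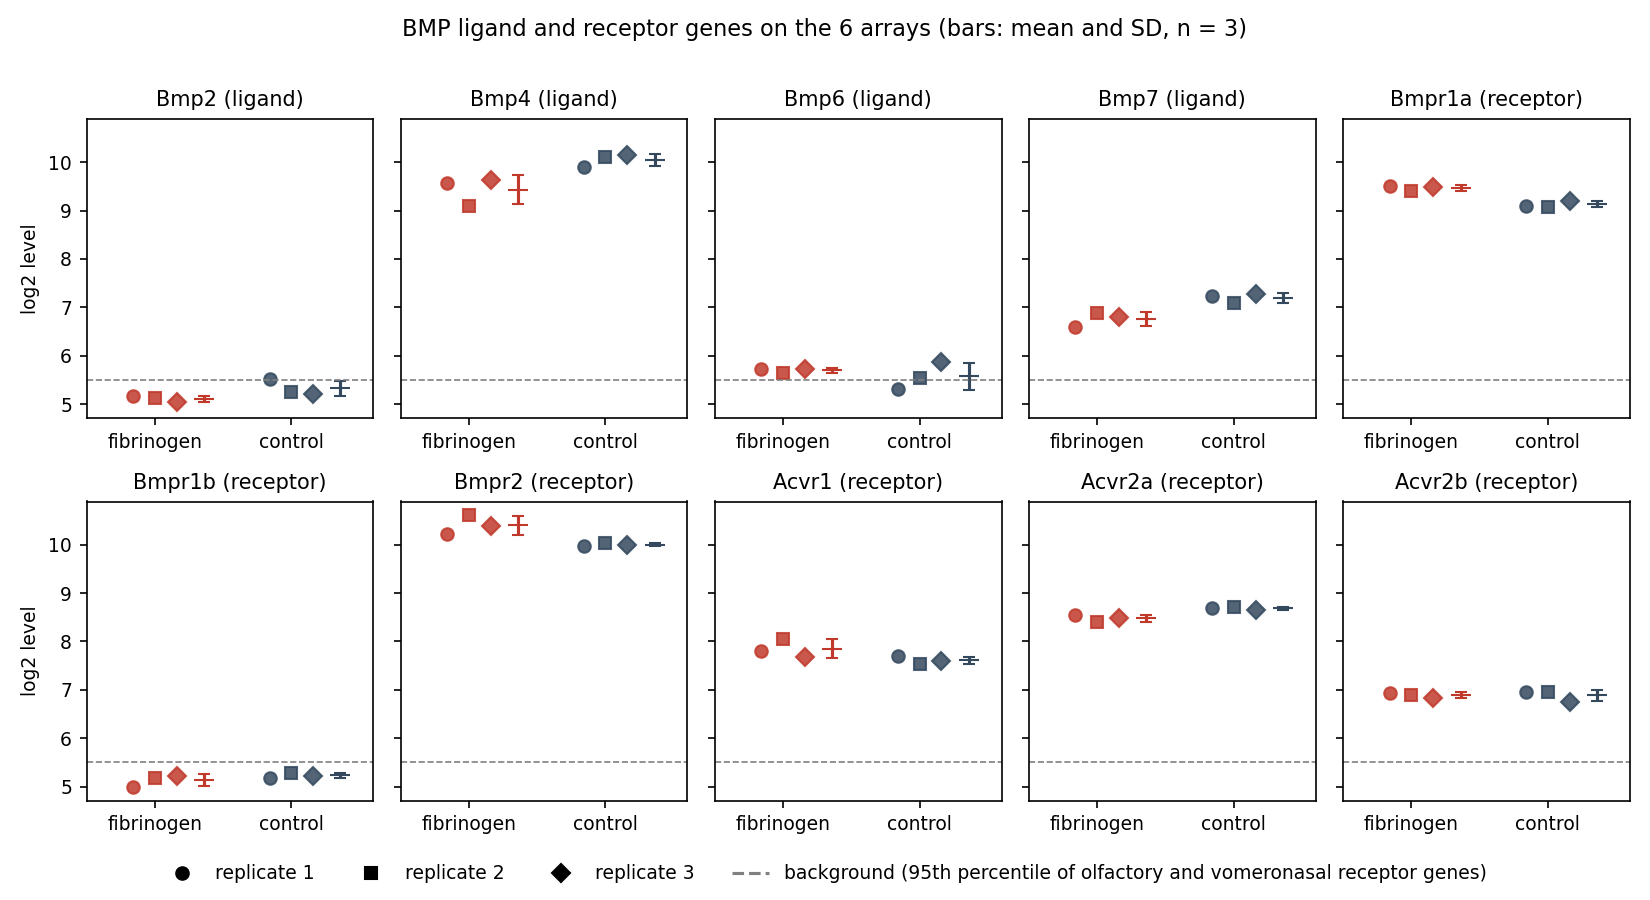
Log2 levels of the 4 ligand and 6 receptor genes (y axis, no absolute amounts) in 3 fibrinogen and 3 control samples; symbols mark the replicate number, bars the mean and SD, and the dashed line the background level of 5.51. Bmp4 and Bmp7 lay lower on every fibrinogen array, Bmpr1a and Bmpr2 higher on every one, and Bmp2 and Bmpr1b stayed around or under the dashed line.

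Bmp4 (probe set 10782891), a ligand of the Bmp2 and Bmp4 subgroup that signals mainly through Bmpr1a and Bmpr1b and is widely used to turn cultured OPCs into astrocytes, had log2 levels of 9.57, 9.09 and 9.64 on the fibrinogen arrays and 9.90, 10.10 and 10.14 on the control arrays. Each fibrinogen array lay below the lowest control, and fibrinogen 2 was the lowest of all. The log2 change was -0.61 ± 0.14 (SE), with a 95% interval of -0.94 to -0.29, the largest difference among the 10 genes. It did not pass (adjusted p = 0.0600, limma), with an SD of 0.30 in the fibrinogen group and 0.13 in the control group (n = 3 each). Without fibrinogen 2 the log2 change was -0.44 (adjusted p = 0.0510, limma). Gpr17, a receptor gene that marks precursors committed to become oligodendrocytes, fell, with log2 levels of 11.49 ± 0.16 in fibrinogen and 12.15 ± 0.14 in control cells (SD, n = 3 each; adjusted p = 0.0134, limma). The OPC markers Pdgfra, Cspg4 and Neu4 fell too, and the rest, named after their values were seen, did not pass: Olig1, Sox10 and Ptprz1 had log2 changes of -0.07, -0.05 and -0.03, and C1ql1 one of 0.52 with all fibrinogen arrays above all controls (adjusted p = 0.0923, limma). In mice Bmp4 itself is expressed by such precursors, and whether the difference in Bmp4 followed the number of these cells was not tested.

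Bmp7 (probe set 10852106) belongs to the Bmp6 and Bmp7 subgroup, whose members signal mainly through Acvr1 and the activin type II receptors. Its log2 levels were 6.60, 6.89 and 6.80 on the fibrinogen arrays and 7.23, 7.08 and 7.28 on the control arrays. The groups did not overlap, and the nearest pair, fibrinogen 2 and control 2, were 6.89 and 7.08. On a linear scale Bmp7 fell to 0.741 of its control level, a log2 change of -0.43 ± 0.10 (SE) with a 95% interval of -0.65 to -0.22 (adjusted p = 0.0489, limma). The call rested close to the threshold: the adjusted p was 0.0423 without fibrinogen 2, 0.120 and 0.106 without fibrinogen 1 and 3, and 0.176, 0.0921 and 0.181 without control 1, 2 and 3 (limma). The call also ended after quantile normalization of the arrays (log2 change -0.45, adjusted p = 0.0518, limma). The log2 change itself stayed between -0.50 and -0.35 in the 6 fits that left out 1 array.

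The other two ligand genes gave weaker signals. Bmp2 (probe set 10840138), the closest relative of Bmp4, had log2 levels of 5.16, 5.13 and 5.04 on the fibrinogen arrays and 5.51, 5.25 and 5.21 on the control arrays. The groups did not overlap, but 5 of the 6 values lay below background and the sixth, control 1, was at its edge. The log2 change of -0.21 (95% interval -0.42 to -0.0017) did not pass (adjusted p = 0.316, limma), and without control 1 it was -0.12. Bmp6 (probe set 10797949), known for its role in iron control through the liver hormone hepcidin, had log2 levels of 5.73, 5.64 and 5.72 on the fibrinogen arrays and 5.32, 5.54 and 5.87 on the control arrays. The fibrinogen values fell inside the spread of the controls. The log2 change was 0.12, with a 95% interval of -0.17 to 0.41, and without control 1 it was -0.0083.

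Among the type I receptor genes, Bmpr1a (probe set 10790481), also called ALK3, the widely expressed receptor for Bmp2 and Bmp4, had log2 levels of 9.51, 9.40 and 9.48 on the fibrinogen arrays and 9.10, 9.08 and 9.20 on the control arrays. Every fibrinogen array was above every control, and the SD was 0.057 in the fibrinogen group and 0.064 in the control group (n = 3 each). Bmpr1a rose 1.26-fold, a log2 change of 0.34 ± 0.07 (SE) with a 95% interval of 0.17 to 0.50 (adjusted p = 0.0441, limma). Its call ended with the arrays centred on their median (log2 change 0.32, adjusted p = 0.0543, limma). It held without fibrinogen 2 (adjusted p = 0.0392) and ended without fibrinogen 1 or 3 (0.121 and 0.118) or control 1, 2 or 3 (0.166, 0.188 and 0.104, limma), while the log2 change stayed between 0.31 and 0.37.

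Acvr1 (probe set 10845429), also called ALK2, is the type I receptor whose activating mutations cause fibrodysplasia ossificans progressiva in humans. Its log2 levels were 7.81, 8.06 and 7.68 on the fibrinogen arrays and 7.69, 7.53 and 7.60 on the control arrays. Fibrinogen 3 lay just under control 1, so the groups overlapped, and the highest value was again on fibrinogen 2. The log2 change of 0.24 (95% interval 0.0081 to 0.48) did not pass (adjusted p = 0.30, limma), and without fibrinogen 2 it was 0.14. Bmpr1b (probe set 10827068), or ALK6, a receptor best known from cartilage and limb development, had log2 levels of 4.99, 5.18 and 5.22 on the fibrinogen arrays and 5.18, 5.29 and 5.22 on the control arrays. All 6 values were below background. The log2 change of -0.10 had a 95% interval of -0.29 to 0.087.

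Among the type II receptor genes, Bmpr2 (probe set 10923687), the type II receptor selective for BMPs and the main gene of heritable pulmonary arterial hypertension in humans, had log2 levels of 10.22, 10.61 and 10.38 on the fibrinogen arrays and 9.97, 10.03 and 10 on the control arrays. The controls lay within a narrow range and all 3 fibrinogen arrays were above them, with fibrinogen 2 highest. The log2 change of 0.40 ± 0.10 (SE), or 1.32-fold, had a 95% interval of 0.18 to 0.63 and did not pass (adjusted p = 0.0754, limma). Without fibrinogen 1 the log2 change was 0.50 and passed (adjusted p = 0.0486, limma), and without fibrinogen 2 it was 0.30 and did not (0.0821, limma).

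The activin type II receptors Acvr2a and Acvr2b bind BMPs as well as activins. Acvr2a (probe set 10836072) had log2 levels of 8.55, 8.40 and 8.49 on the fibrinogen arrays and 8.69, 8.71 and 8.65 on the control arrays. Each fibrinogen array lay below each control, with a log2 change of -0.20 ± 0.07 (SE) and a 95% interval of -0.36 to -0.042 that did not pass over all genes (adjusted p = 0.20, limma). Acvr2b (probe set 10914230) had log2 levels of 6.94, 6.90 and 6.83 on the fibrinogen arrays and 6.96, 6.95 and 6.75 on the control arrays. The groups overlapped throughout, and the 95% interval of the log2 change, -0.18 to 0.19, bounds a difference that these arrays could not tell from 0. Acvr2b was the gene of the 10 with the smallest difference, and its sign changed with the setting.

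**Figure D2:**
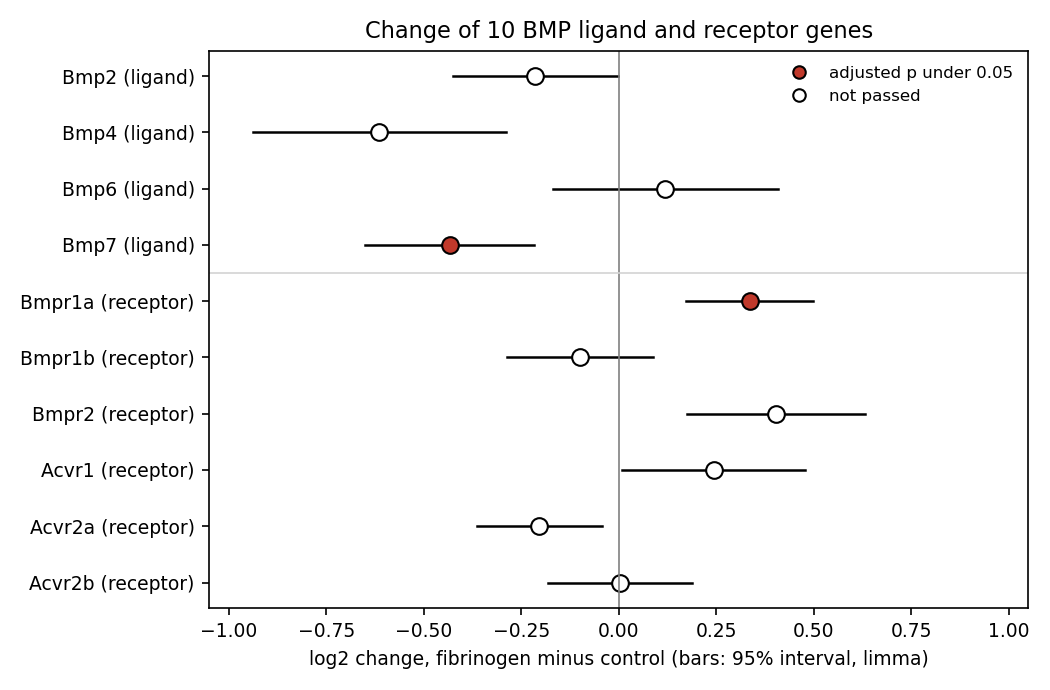
Log2 change (x axis, fibrinogen minus control) of each gene with its 95% interval from limma, ligands above the line and receptors below it; filled points passed at an adjusted p under 0.05. Bmp7 and Bmpr1a passed, Bmp4 at -0.61 lay further from 0 than Bmp7 and Bmpr2 at 0.40 further than Bmpr1a, both with wider intervals, and Bmp6, Bmpr1b and Acvr2b had intervals that cross 0.

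Bmp4 had a larger log2 difference than Bmp7, the ligand gene that passed, and Bmpr2 a larger one than Bmpr1a, the receptor gene that passed, and both had their most extreme value on fibrinogen 2. When genes under the 30th percentile of mean level were left out of the test, all 4 passed, with adjusted p-values of 0.0409 for Bmp4, 0.0302 for Bmp7, 0.0234 for Bmpr1a and 0.0480 for Bmpr2 (limma, 9768 genes, of which 6.10% passed). They also passed when the arrays were weighted by their spread, where 4.72% of all genes passed, fibrinogen 2 had the lowest weight at 0.318 and the log2 changes were -0.51, -0.44, 0.36 and 0.35. In the 6 fits that left out 1 array, Bmp4 passed in 0, and Bmp7, Bmpr1a and Bmpr2 in 1 each.

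**Figure D3:**
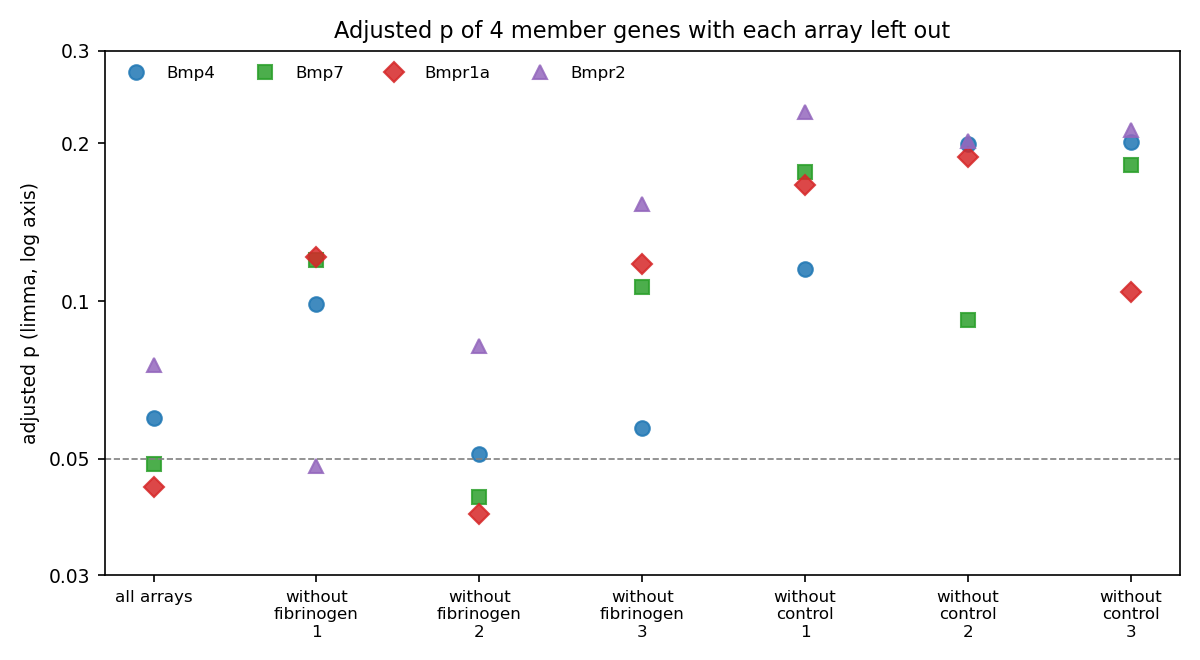
Adjusted p in limma (y axis, log scale) of Bmp4, Bmp7, Bmpr1a and Bmpr2 with all arrays and without each array in turn (x axis); the dashed line is the threshold of 0.05. Bmp7 and Bmpr1a lie under the line with all arrays and without fibrinogen 2, Bmpr2 without fibrinogen 1 alone, and Bmp4 reaches 0.0510 without fibrinogen 2.

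Other genes of the pathway were counted by role in the same fit, in lists that left out these 10 genes. Across all genes 1.81% rose, 1.29% fell and 15.6% had an unadjusted p under 0.05 (limma), with a median log2 change of -0.0033. Of 20 measured genes for other ligands of the superfamily, 12 above background, 0 passed (limma; at an unadjusted p under 0.05, 2 were higher and 0 lower), with a median log2 change of -0.01. The largest differences above background were those of Gdf15, a stress-induced member of the superfamily, with log2 levels of 7.13 ± 0.05 in fibrinogen and 6.81 ± 0.11 in control cells, and Gdf11, an activin-like ligand, with 7.98 ± 0.18 in fibrinogen and 7.69 ± 0.05 in control cells (SD, n = 3 each), and neither passed (adjusted p = 0.0754 and 0.181, limma). Without genes under the 30th percentile Gdf15 passed (adjusted p = 0.0439, limma). Of 10 measured genes for other receptors and co-receptors, 8 above background, 0 passed (limma; at an unadjusted p under 0.05, 0 were higher and 1 lower). Their log2 changes ran from -0.19 to 0.03 with a median of -0.05. The 2 largest above background were those of Tgfbr1, the type I receptor for TGF-beta (-0.19), and Amhr2, the type II receptor for anti-Müllerian hormone (-0.07).

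Outside the cell, 1 of 17 measured genes for ligand processing and antagonists rose and 0 fell, with a median log2 change of 0.03. Of all genes 1.81% rose and 1.29% fell. The antagonist that rose was Nog, whose product noggin binds BMPs and keeps them from their receptors. Its log2 levels were 5.82, 5.97 and 5.90 on the fibrinogen arrays and 5.36, 5.40 and 5.54 on the control arrays, so the control mean of 5.43 lay below background and the fibrinogen mean of 5.90 above it. The groups did not overlap, and the log2 change of 0.46 passed (adjusted p = 0.0182, limma). Its size is uncertain, since control 1 and 2 lay below background and control 3 just above it. The change did not pass without fibrinogen 3 (0.0565) or control 1 or 2 (0.0852 and 0.0940, limma).

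Inside the cell, 1 of 13 measured genes for Smads and receptor regulators rose and 0 fell, with a median log2 change of 0.10. Of all genes 1.81% rose and 1.29% fell. The gene that rose was Smad9, one of the Smads that BMP type I receptors phosphorylate. Its log2 levels were 6.73, 6.63 and 6.52 on the fibrinogen arrays and 6.26, 6.19 and 5.87 on the control arrays. The groups did not overlap, and with all arrays the log2 change of 0.52 passed (adjusted p = 0.0447, limma). It did not pass after quantile normalization (log2 change 0.50, adjusted p = 0.0684, limma). It passed in 0 of the 6 fits that left out 1 array, where the adjusted p was 0.0673 to 0.128 (0.128, 0.0917 and 0.0712 without fibrinogen 1, 2 and 3, and 0.0673, 0.113 and 0.119 without control 1, 2 and 3, limma).

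Of 20 measured BMP target genes 7 rose, 0 fell and 13 did not pass, with a median log2 change of 0.20. Across all genes 1.81% rose and 1.29% fell, with a median of -0.0033. Nog is 1 of these 7 and was already counted among the antagonists, and the lists also share Bambi, Smad6 and Smad7. The title already names the pathway, so this list is not independent evidence of its direction. Id1, an inhibitor of the basic helix-loop-helix factors that drive differentiation, had log2 levels of 8.87, 8.70 and 8.91 on the fibrinogen arrays and 7.54, 7.52 and 7.66 on the control arrays, a log2 change of 1.25 that passed in every fit without 1 array. Hes1, a repressor shared with the Notch pathway, and Id2 and Id3, relatives of Id1, rose by 0.94, 0.89 and 0.71 on the log2 scale. Without fibrinogen 3, control 1 or control 2 the number of targets that rose was 4 each, and Id3 kept its call only without fibrinogen 2 (adjusted p = 0.0482, against 0.0759 to 0.113 without each of the other arrays, limma). The log2 change of Id1 was thus larger than that of any of the 10 ligand and receptor genes, whose differences lay between -0.61 and 0.40.

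**Figure D4:**
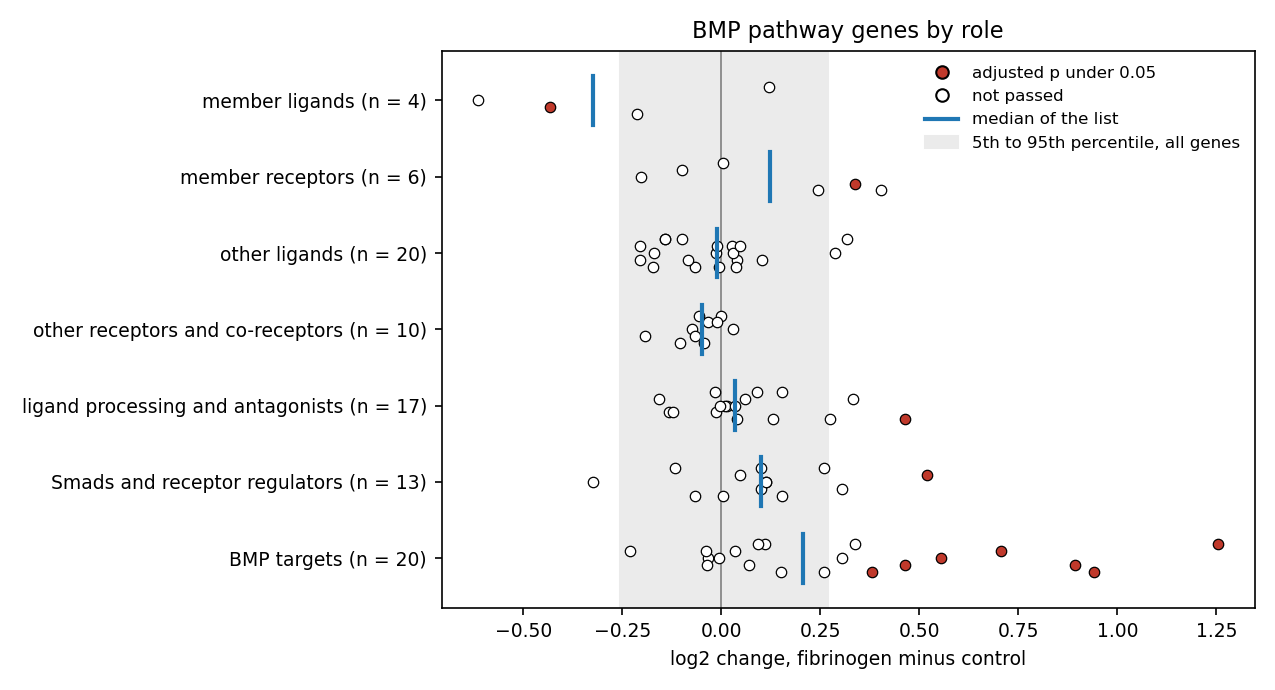
Log2 change (x axis, fibrinogen minus control) of each measured gene by role, with the 4 ligands and 6 receptors described here at the top; filled points passed at an adjusted p under 0.05, vertical bars are list medians, and the grey band spans the 5th to 95th percentile of all genes, -0.26 to 0.27. Points that passed are 1 among the ligands (lower), 1 among the receptors, 1 each among the antagonists and Smads, and 7 among the targets (all higher), where Nog is the antagonist that passed and also one of the targets.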

How the data were processed

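RNA of 6 samples was hybridised to 6 Affymetrix arrays. The deposited table gives a log2 value for each probe set on each array. The submitters' processing notes name RMA and limma, with no version or setting, and the deposited log2 values were taken as the authors' RMA output, which corrects background and sets arrays to a common distribution and can compress differences of dim genes. The scale was inferred from the values, and centring was not stated. Of 26312 probe sets, 1206 were blank on every array, 14700 had values and 1 symbol, 275 several and 10131 none. Where a gene had several probe sets the one with the highest mean was used (13949 genes). Entrez IDs matched 13924 of these in the RefSeq table of GRCr8, and 0 symbols differed. The build of the array design is not given in the sources used here, and no coordinates are reported.

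Groups and replicate numbers came from the sample titles. R 4.3.3 with limma 3.58.1 was used for every test (linear model and empirical Bayes, two-sided, no covariates), with Benjamini-Hochberg adjustment over all genes, and the procedure was tested on simulated data. There 26% of simulated log2 changes of 0.35 in size passed, 74% of those of 0.6, 94% of those of 1 and 100% of those of 2. A gene that did not pass may thus still differ by such small amounts. The simulation changed a small part of the genes and drew independent normal noise, with the same SD for a gene on every array. The real arrays differed in spread, so the simulated shares may not hold for them. SEs and 95% intervals are moderated. No exact permutation test was run, since with 3 arrays a group its smallest p is 0.1. Background came from genes with symbols of olfactory (Or and Olr) and vomeronasal receptors. The number of arrays limits precision. No array copied another (identical values for 3.63% of genes at most). The 10 genes, the pathway and marker lists and the tests were chosen with earlier results of these data known. The text names all 10 genes, and up to 4 genes per pathway list that passed with the largest change, or the 2 with the largest change above background. The plan was to name up to 2 markers per cell type, and it was not kept. All measured OPC, oligodendrocyte, astrocyte, microglia, neuron and endothelial markers were named after their values were seen. No pericyte or fibroblast marker was named. Alternatives were other scalings, filters, probe set means, a variance trend, array weights, the replicate number as a block, and leaving out each array. Deviations of arrays with the same replicate number correlated at 0.028, 0.022 and 0.011, so the numbers were not taken to pair the samples.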

Additional observations from a re-analysis of the deposited data

How the results depend on the processing

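The direction of 8 of the 10 genes was the same under every alternative that tested them, and only Bmp6 and Acvr2b changed sign. The filters at the 30th percentile and at background removed Bmp2 and Bmpr1b, so neither was tested there. The log2 change of Bmp6 was -0.0083 without control 1 and reached 0.27 without control 3, and that of Acvr2b was -0.010 with median centring, -0.0047 after quantile normalization, -0.014 with array weights, -0.022 without fibrinogen 1, -0.0017 without fibrinogen 2, -0.065 without control 3, and 0.04 at most, without control 1. The counts of the 10 genes that passed depended on the setting. With all arrays these were 1 higher and 1 lower. Median centring left 0 higher, quantile normalization 0 lower (Bmp7 had an adjusted p of 0.0518, limma), and the replicate number as a block 0 higher and 0 lower (Bmp7 and Bmpr1a at an adjusted p of 0.0824 each, limma). Leaving out genes under the 30th percentile, a variance trend, array weights and, chosen after seeing the data, leaving out genes under the background level gave 2 higher and 2 lower each, while 6.10%, 4.01%, 4.72% and 5.98% of the genes tested passed, against 3.1% as reported. Leaving out 1 array gave 0 to 1 higher and 0 to 1 lower.

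Array weights gave 383 genes higher and 276 lower over all genes, against 252 and 180 in the test as reported, the trend gave 309 and 251, the filter at background 337 and 258, the block 195 and 120, and leaving out 1 array gave 96 to 263 higher and 55 to 173 lower. Leaving out genes under the 30th percentile or under background gave 1 other ligand, 2 antagonist or processing genes and 2 Smad or regulator genes higher. Array weights gave 2 antagonist or processing genes, and quantile normalization 0 Smad or regulator genes. Without 1 array, 0 to 1 antagonist genes, 0 Smad genes and 4 to 7 targets rose. Each fit without 1 array had fewer samples, yet without fibrinogen 2 the counts over all genes were 263 higher and 173 lower. The cause of the differences between settings was not tested. Of the 10 genes, 8 lay above background in control cells, and 8 to 10 did under the other 2 definitions. With background as reported, 71.3% of all genes lay above it by the mean of all arrays.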
